A study of Mus musculus with 6 samples.

Results

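The enzymes that write, read and remove marks on histones and DNA, the remodelers that move nucleosomes, and the coregulators that carry them to transcription factors were examined in the suprachiasmatic nucleus (SCN), the brain's circadian pacemaker, after a light pulse in the early night. The members were chosen by gene symbol alone: histone deacetylases (Hdac), sirtuins (Sirt), lysine acetyltransferases (Kat) and methyltransferases (Kmt), the SMARC and CHD remodelers, nuclear receptor coactivators (Ncoa), DNA methyltransferases (Dnmt), methyl-CpG-binding domain proteins (Mbd) and the corepressor Sin3a. They were 58 genes of 12393 named on the array, read by 58 probe sets that passed a filter on low signals and 43 that did not, of 22626 probe sets in all. No member probe set passed the test between light pulse and sham light pulse, at an adjusted p under 0.05 by limma. The closest was Smarcd2, a subunit of the SWI/SNF remodeling complexes, at 1.86-fold the sham level and an adjusted p of 0.960.

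Transcription from chromatin depends on these proteins in opposing pairs. Acetyltransferases open chromatin and deacetylases close it again, methyltransferases mark active or silent genes according to the residue they modify, and remodelers use ATP to slide or evict nucleosomes. In the circadian clock, CLOCK and BMAL1 recruit acetyltransferases such as KAT2B and the methyltransferase KMT2A to their target genes, SIRT1 deacetylates clock proteins, and the receptor REV-ERB-alpha silences genes through a corepressor that carries HDAC3. Light at night reaches the SCN through glutamate and the transcription factor CREB, whose coactivators are acetyltransferases, and turns on immediate-early genes within minutes.

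Both groups were adult male C57BL/6 mice of 2 to 4 months kept in a cycle of 14 h light and 10 h dark. The light pulse group received 2400 lux for 30 min starting 1 h after lights off, the sham light pulse group was handled in the same way without the light, and tissue was taken at the end, 1.5 h after lights off. Each group had 3 arrays, named sham 1 to 3 and light 1 to 3 after their labels, and each array held SCN tissue captured by laser from 18 sections of 12 μm, 6 from each of 3 pooled mice. The labels put the pulse at Zeitgeber time 13 and speak of one animal per array in one field and of pools in another, and the account of pools and of hours after lights off is used here. Whether the pools of a group were made from separate mice is not given in the sources used here, and a p-value therefore covers the variation from pool to pool, which may be technical. From 1 ng of RNA, amplified in 2 rounds, the deposited value is a signal intensity per probe set in arbitrary units (MAS5). A signal can be set against the same probe set on another array, but not against another probe set.

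The light pulse acted in these mice. Fos, an immediate-early gene, had signals of 667.7, 297.6 and 370.0 on the sham arrays and of 14253.5, 10399.9 and 14457.3 on the light arrays, a log2 difference of 4.94 (SE 0.31, n = 3 per group, limma adjusted p = 3.35e-06). Egr1, another of these genes, differed by 4.84 (SE 0.32, limma adjusted p = 3.35e-06). All 9 measured genes of 10 SCN neuron markers had a kept probe set, with Vip between 30270.7 and 64589.1 and Gad1 between 8440.0 and 11823.6. The summed signal of these markers was 65070.1 to 76247.4 on the sham arrays and 78556.4 to 99709.6 on the light arrays, which did not overlap. The sum was carried by Vip, and without it ran from 32898.6 to 34799.4 on the sham arrays and from 35120.5 to 35573.8 on the light arrays. By gene, Vip and Grp lay higher on every light array (log2 differences of 0.43 and 0.17, limma adjusted p = 0.960 and 0.961). The other 7 overlapped at the probe set with their highest mean signal. They differed by 0.61 for Avp, 0.44 for Prok2, 0.28 for Rgs16, 0.17 for Penk, 0.01 for Gad1, -0.02 for Six6 and -0.18 for Calb1. Of the 11 kept probe sets of these markers, 8 differed by more than 0. A limma unadjusted p under 0.05 was reached by 2 of them, both with higher light signals, against 4.31% of all kept probe sets. They were of Vip and of a further Rgs16 probe set. Every light signal was above every sham signal in 3 of the 11, against 5.62% of all kept probe sets, and below in 0. On light 3 the choroid plexus marker Ttr had a signal of 110322.6, against at most 295.6 on the other arrays, and the 4 measured choroid plexus markers of 6 summed to 110582.9, against 116.6 to 326.4. This sum was carried by Ttr. Folr1, Kl and Aqp1, none of them kept by the filter on low signals, read 147.3, 72.7 and 40.3 on light 3, each its highest of the 6 arrays. Endothelial markers summed to 1236.9 to 1796.4 on the sham arrays and to 852.2 to 1239.3 on the light arrays. Oligodendrocyte markers summed to 24749.6 on sham 2 and 27663.3 to 45715.5 elsewhere, mostly from Mbp. The part of these differences in the results below was not tested. In captured tissue, fewer cells of a type and less RNA per cell cannot be told apart.

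The study asked which transcripts respond to light and whether their promoters hold cAMP response elements (CRE), the sites of CREB, and TATA elements, so the promoters of the members were read first. The study searched longer stretches, before the start codon, with sequence matrices and counted elements conserved across mammals. Here exact letters were matched in mouse windows of 300 bases around the transcription start. The counts below therefore cannot be set against the study's. RefSeq windows on GRCm38.p6, from 250 bases before to 50 bases after an annotated start, were found for 47 of the 58 genes (69 windows). The full CRE, TGACGTCA on either strand, was in 0 of the 69 windows and in 1.79% of 32851 windows of all genes. The CRE core, TGACG on either strand, which every full CRE contains, was in 21 windows of 19 genes (30.4%, against 20.8% of all windows). A TATA element, TATAAA on either strand, was in 5 windows (7.25%, against 13.6%), those of Hdac9, Mbd3, Ncoa4, Ncoa6 and Smarcd2. The E-box CACGTG, the site of CLOCK and BMAL1, was in 4 windows (5.80%, against 7.15%), those of Dnmt3a, Dnmt3l, Hdac5 and Sirt1. The 250 bases before the start had a median GC content of 62.0% and a median of 17 CpG dinucleotides in the member windows, against 52.4% and 6 in all windows. A match is a description of the letters and not of binding.

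The upstream 250 bases are shown for the 3 genes in which a probe set was higher on every light array than on any sham array, with Fos for contrast. They run 5′ to 3′ toward the start on the gene's own strand, and capitals mark the motifs named above. For Dnmt3a, which has 3 annotated windows, the one with a motif is shown.
Smarcd2, chr11:106267633-106267882, minus strand: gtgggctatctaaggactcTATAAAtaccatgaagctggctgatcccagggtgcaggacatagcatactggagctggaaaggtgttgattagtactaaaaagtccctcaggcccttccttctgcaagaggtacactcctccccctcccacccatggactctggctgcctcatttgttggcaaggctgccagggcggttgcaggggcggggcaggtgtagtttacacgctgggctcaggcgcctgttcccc
Dnmt3a, chr12:3891494-3891743, plus strand: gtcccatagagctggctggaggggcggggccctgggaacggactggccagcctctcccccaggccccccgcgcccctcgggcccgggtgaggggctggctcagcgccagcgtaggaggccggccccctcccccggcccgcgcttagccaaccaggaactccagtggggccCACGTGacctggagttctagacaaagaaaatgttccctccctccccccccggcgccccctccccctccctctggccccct
Kmt2a, chr9:44881290-44881539, minus strand: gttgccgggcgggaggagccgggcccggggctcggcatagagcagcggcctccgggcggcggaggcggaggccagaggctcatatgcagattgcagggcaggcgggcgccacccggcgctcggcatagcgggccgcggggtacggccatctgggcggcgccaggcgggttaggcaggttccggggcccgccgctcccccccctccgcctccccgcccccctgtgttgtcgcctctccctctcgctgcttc
Fos, chr12:85473640-85473889, plus strand: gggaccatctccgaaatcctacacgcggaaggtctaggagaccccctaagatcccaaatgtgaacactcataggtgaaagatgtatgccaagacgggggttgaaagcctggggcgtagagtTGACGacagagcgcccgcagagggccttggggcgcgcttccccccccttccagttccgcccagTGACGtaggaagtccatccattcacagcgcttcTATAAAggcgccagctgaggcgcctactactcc
In Fos a TATA element lay 33 bases before the start and CRE cores lay 66 and 129 bases before it. The full CRE was absent from this Fos stretch too, although the study reported conserved CREs for the gene by its own search. Smarcd2 had a TATA element 231 bases before the start and no CRE core. The Dnmt3a window had an E-box 80 bases before its start, and the Kmt2a window held none of the motifs. The GC content of these stretches was 56.4% for Smarcd2, 73.6% for Dnmt3a, 76.8% for Kmt2a and 58.4% for Fos.

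Probe sets were kept for the test by the third highest of their 6 signals, whatever their group, with 118.2 as the lowest value that passed. The filter kept 58 member probe sets and left out 43 (57.4% kept, against 45.7% of all probe sets), and those kept covered 45 of the 58 genes. The 13 genes without a kept probe set were Chd7, Dnmt3b, Dnmt3l, Hdac7, Hdac9, Kmt2d, Mbd3, Mbd4, Mbd6, Ncoa2, Ncoa5, Sirt4 and Smarcd1. All 3 class I histone deacetylase genes were kept, 11 of 12 SMARC genes, all 5 lysine acetyltransferases, 6 of 7 lysine methyltransferases, 4 of 5 sirtuins, 4 of 5 CHD remodelers, 4 of 6 nuclear receptor coactivators and 3 of 5 class II and IV histone deacetylases. Of the DNA methyltransferases 2 of 4 genes were kept, and of the methyl-CpG-binding domain proteins 2 of 5. Among the 43 probe sets left out, the groups separated in 2 with higher light signals (of Chd4 and Kat2b) and in 1 with lower ones (of Mbd2), against 7.58% and 2.95% of all probe sets left out. The Chd4 probe set, 1436343_at, read 56.0, 82.1 and 49.3 on the sham arrays and 125.3, 279.3 and 83.8 on the light arrays, where light 3 lay just above sham 2. Mbd2 (1425803_a_at) read 40.7, 65.8 and 43.3 on the sham arrays and 4.4, 37.6 and 2.0 on the light arrays. At 1450821_at Kat2b read 2.1, 3.7 and 2.1 on the sham arrays and 42.6, 4.5 and 9.2 on the light arrays.

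**Figure D1:**
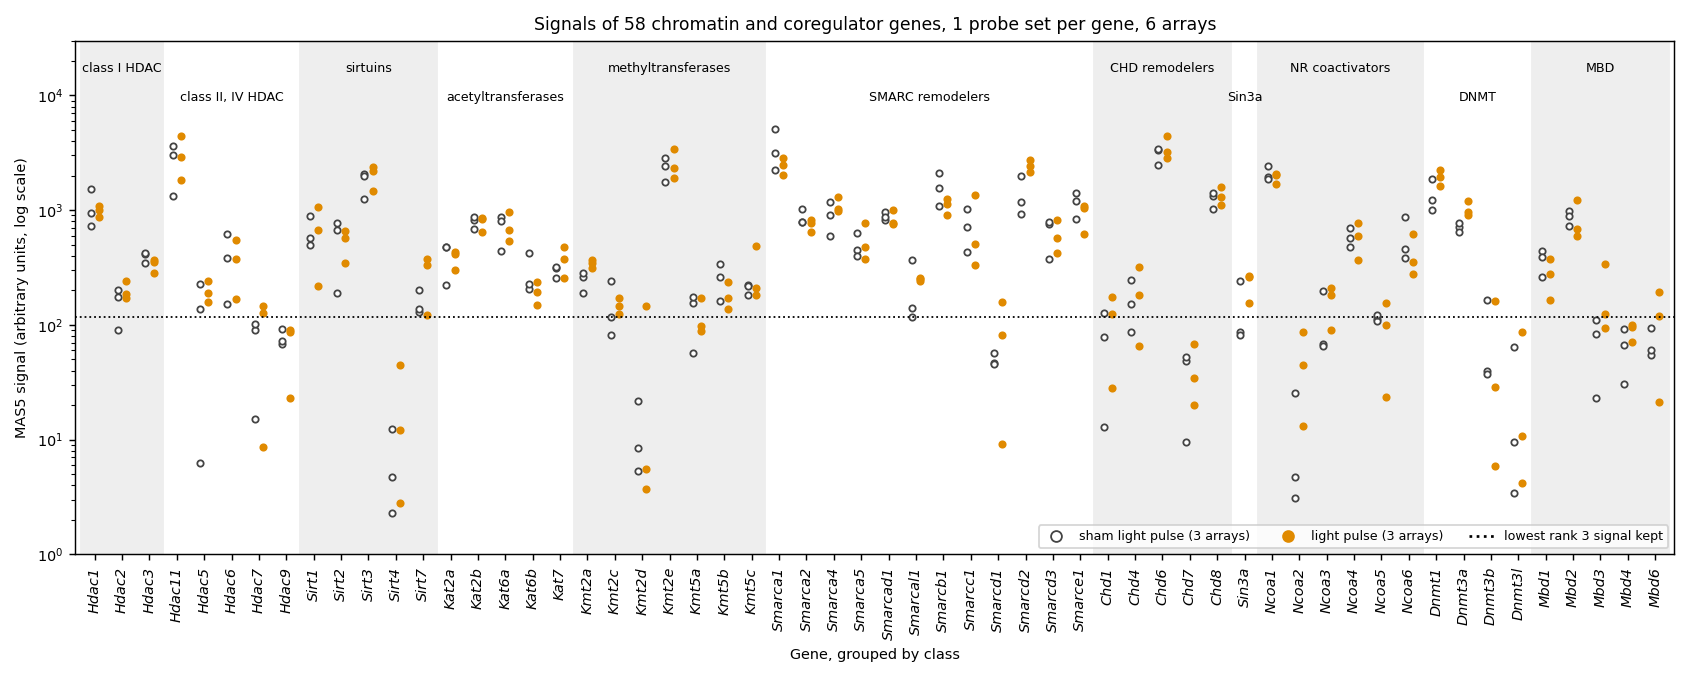
MAS5 signal (arbitrary units, log scale) of each of the 58 genes at the probe set with its highest mean log2 signal, by class; open points are the 3 sham arrays, filled points the 3 light pulse arrays, and the dotted line is the lowest third-ranked signal kept, 118.2. Points of a gene can be compared with each other but not with another gene's; for most genes the groups overlap, and Smarcd2, Dnmt3a and Kmt2a have all light points above all sham points.

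Of the 58 kept member probe sets, limma called 0 at an adjusted p under 0.05, where 0.0677% of all kept probe sets were called. At an unadjusted p under 0.05 the count was 1 (1.72% of members), against 4.31% of all kept probe sets. A Bayesian test after the study's methods was written anew and did not match the study's own counts. It also called 0 (0.0484% of all) and had 1 at an unadjusted p under 0.05 (4.31% of all). All 3 light signals lay above all 3 sham signals in 4 member probe sets (6.9%), against 5.62% of all kept probe sets. They were 2 of Smarcd2 and 1 each of Dnmt3a and Kmt2a. All 3 light signals lay below all 3 sham signals in 0 member probe sets, against 4.46% of all. These shares were near or under those of the array as a whole. Without sham 1 the members at an unadjusted p under 0.05 numbered 6 (Dnmt1, Hdac5, Sin3a, Smarca1 and 2 of Smarcd2), where 5.44% of all kept probe sets passed, and those higher on every light array numbered 9, where 10.9% of all kept probe sets were. Without light 3 the latter also numbered 9, against 11% of all.

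The log2 difference, light minus sham, was above 0 in 32 of the 58 kept member probe sets (55.2%, against 50.1% of all kept probe sets). Its median was 0.08, against 0.001 over all kept probe sets. Without sham 2 the median was -0.06 and 24 were above 0, and with the stricter filter of 5000 probe sets it was -0.02. The difference was under 2-fold in either direction for 96.6% of them, against 94.8% of all, and the exceptions were Hdac5 and the second probe set of Smarcd2. The precision was limited. The median SE was 0.39, against 0.36 over all kept probe sets, and the 95% confidence interval lay within 2-fold in both directions for 19 of the 58 (32.8%, against 42.5% of all). For the other member probe sets a change of 2-fold was within the interval.

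**Figure D2:**
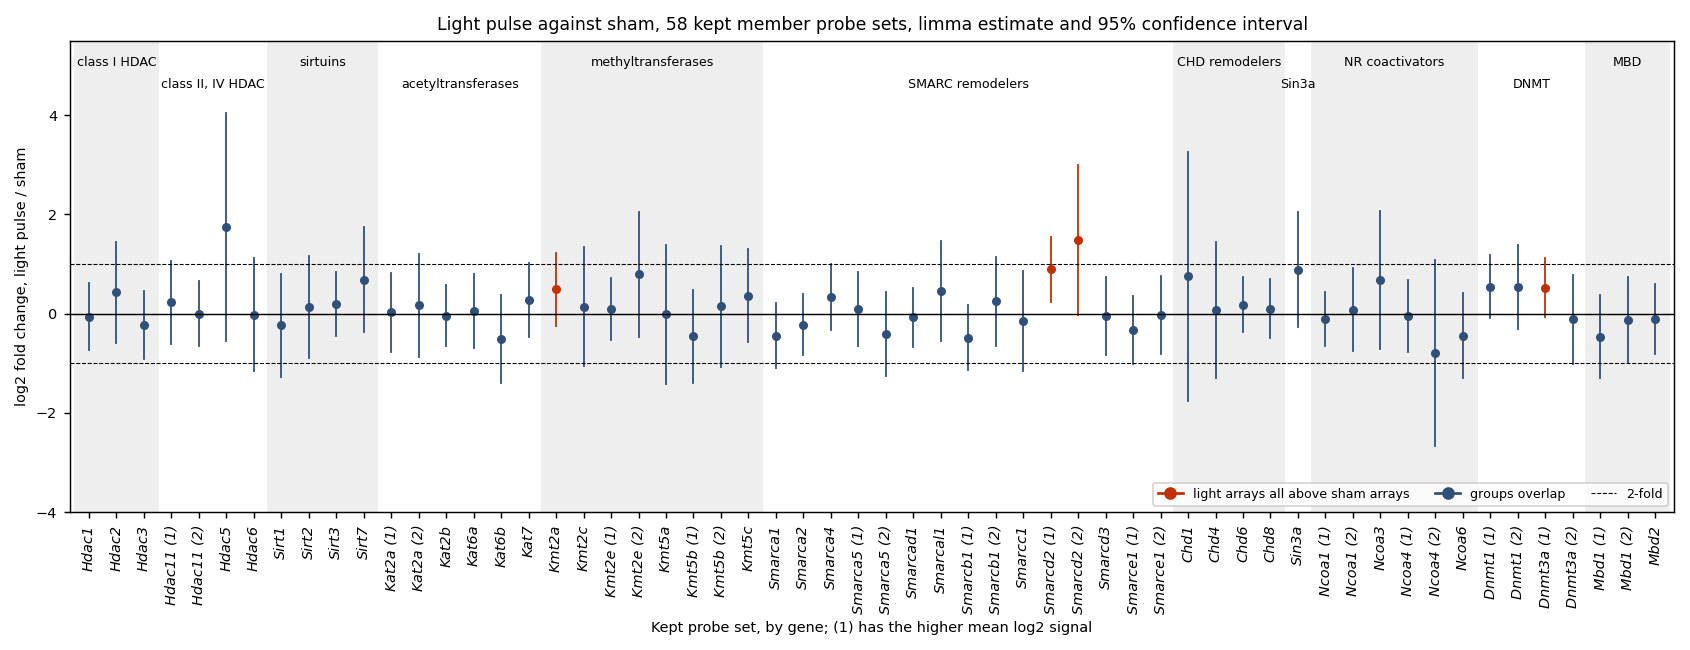
Log2 fold change, light pulse over sham, of the 58 kept member probe sets by class (points, limma estimate; bars, 95% confidence interval; 3 arrays per group); dashed lines mark 2-fold. Every interval spans 0 except that of the first Smarcd2 probe set, 0.24 to 1.55, and the probe sets in red (2 of Smarcd2, 1 each of Kmt2a and Dnmt3a) have all light signals above all sham signals.

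Among the SMARC remodelers, the ATPases and accessory subunits of SWI/SNF and related complexes, Smarcd2 (probe set 1448400_a_at) had signals of 2004.4, 1190.7 and 934.3 on the sham arrays and of 2421.3, 2140.9 and 2760.7 on the light arrays. Every light array was above every sham array, with sham 1 close to the lowest light array. Its log2 difference was 0.89 (SE 0.31, 95% interval 0.24 to 1.55, 1.86-fold, n = 3 per group, limma adjusted p = 0.960). Leaving out each array in turn gave 0.65 (without sham 3) to 1.20 (without sham 1), and the adjusted p ran from 0.889 to 1.00 over all alternatives. Without light 3, the array with the high Ttr signal, the difference was 0.80. Of the 11 kept probe sets of SCN neuron markers, 3 also lay higher on every light array, those of Vip and Grp among them. Their part in this result was not tested. Smarcd2 encodes BAF60b, one of 3 interchangeable subunits that link the complex to transcription factors. Its second kept probe set, 1426192_at, read 95.0, 25.8 and 105.6 on the sham arrays and 195.3, 162.6 and 178.8 on the light arrays, with no overlap either. The log2 difference there was 1.49 (SE 0.70, 95% interval -0.02 to 2.99, limma adjusted p = 0.960). The third probe set, 1448401_at, was not kept and read 45.5, 68.1 and 38.3 on the sham arrays and 98.3, 63.6 and 158.9 on the light arrays, where light 2 fell among the sham values. The other genes of this subunit family did not stand apart in the same way. Smarcd3 (BAF60c) differed by -0.05 (SE 0.37), and neither probe set of Smarcd1 (BAF60a) was kept.

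The ATPases of the family overlapped between groups. Smarca4 (BRG1) had signals of 600.3 to 1183.5 on the sham arrays and 974.6 to 1305.3 on the light arrays, a log2 difference of 0.34 (SE 0.31). Smarca2 (BRM), the alternative ATPase of the same complexes, had 783.8 to 1026.3 and 639.6 to 817.5, a difference of -0.22 (SE 0.28). Smarca1 (SNF2L), an ATPase of the ISWI group, had signals of 2239.9, 5094.3 and 3182.0 on the sham arrays and of 2491.2, 2030.0 and 2834.9 on the light arrays. Sham 2 was far above the rest and the groups overlapped. The log2 difference was -0.45 (SE 0.30, 95% interval -1.10 to 0.21, limma adjusted p = 0.960), and without sham 2 it was -0.14. The core subunit Smarcb1 (SNF5) was read by a pair of kept probe sets that went opposite ways. At 1435856_x_at it had 1555.5, 2102.2 and 1078.2 on the sham arrays and 1122.5, 1244.2 and 909.8 on the light arrays, a log2 difference of -0.49 (SE 0.30, limma adjusted p = 0.960). At 1416045_a_at it had 503.9, 203.2 and 585.6 on the sham arrays and 558.5, 556.4 and 323.2 on the light arrays, a log2 difference of 0.25 (SE 0.42). Sham 2 was the highest of the 6 arrays on the one and the lowest on the other. Over the 15 kept SMARC probe sets, which also read Smarca5, Smarcad1, Smarcal1, Smarcc1 and Smarce1, 6 differences were above 0 and 9 below, with a median of -0.05.

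**Figure D3:**
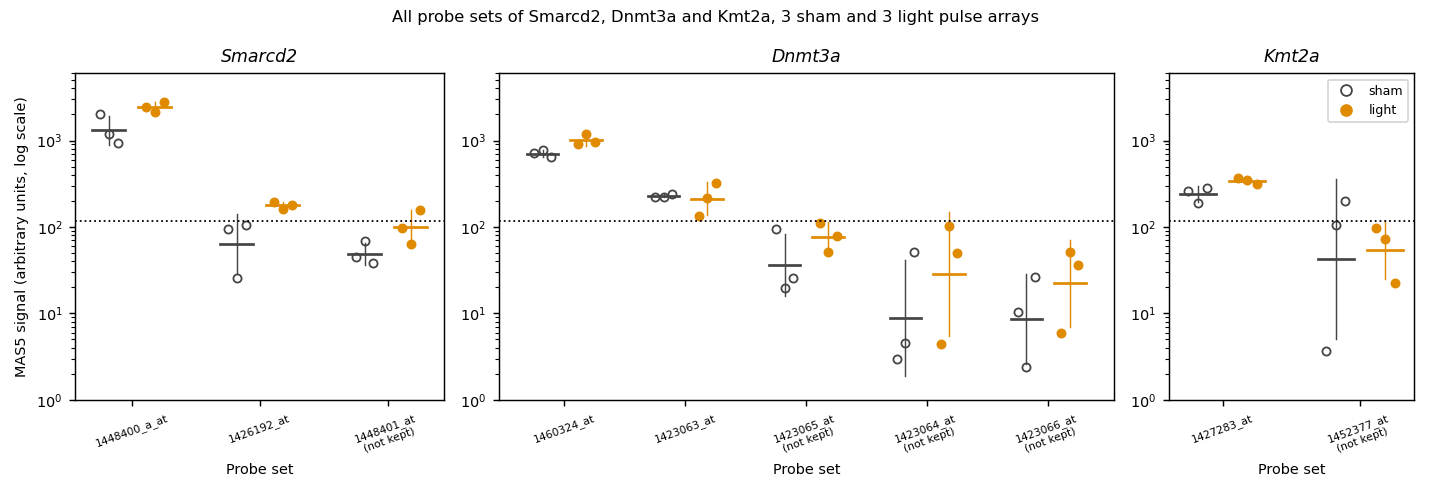
MAS5 signals (arbitrary units, log scale) of all probe sets of Smarcd2, Dnmt3a and Kmt2a; points are arrays (open, sham; filled, light pulse), horizontal lines geometric means and vertical lines 1 SD of the log2 signal; the dotted line is the lowest third-ranked signal kept. The groups separate at 2 of 3 Smarcd2, 1 of 5 Dnmt3a and 1 of 2 Kmt2a probe sets.

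DNA methyltransferases write methylation on cytosine: Dnmt1 copies it to the new strand after replication and is also present in neurons, and Dnmt3a sets it anew. Dnmt3a (1460324_at) had signals of 709.5, 773.4 and 644.5 on the sham arrays and of 899.6, 1195.6 and 971.0 on the light arrays. The groups did not overlap. The log2 difference was 0.52 (SE 0.28, 95% interval -0.08 to 1.12, 1.43-fold, limma adjusted p = 0.960). Its other kept probe set, 1423063_at, read 222.8, 224.8 and 242.6 on the sham arrays and 135.2, 217.4 and 323.3 on the light arrays, with the light arrays on both sides of the sham arrays and a log2 difference of -0.12 (SE 0.42). The remaining 3 probe sets of the gene were not kept. Dnmt1 (1435122_x_at) had 1875.8, 1011.8 and 1224.7 on the sham arrays and 1635.0, 1964.9 and 2223.3 on the light arrays. Sham 1 lay among the light arrays, and the log2 difference was 0.54 (SE 0.29, 95% interval -0.09 to 1.17, limma adjusted p = 0.960). The second Dnmt1 probe set gave the same estimate, 0.54 (SE 0.39), with light 3 among the sham arrays. The median of the 4 kept probe sets was 0.53, and none of the 4 intervals lay within 2-fold.

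The methyl-CpG-binding domain proteins read that mark and recruit corepressors. Mbd1 (1417968_a_at) had signals of 441.7, 389.7 and 261.7 on the sham arrays and of 275.6, 376.3 and 165.7 on the light arrays, overlapping, with a log2 difference of -0.46 (SE 0.39, limma adjusted p = 0.960). Mbd2, a subunit of one form of the NuRD complex, had 724.7, 980.4 and 881.9 on the sham arrays and 685.3, 599.7 and 1223.3 on the light arrays. Light 3 was the highest and light 2 the lowest, and the difference was -0.11 (SE 0.33). The other kept Mbd1 probe set differed by -0.13 (SE 0.40). All 3 kept probe sets of the class were below 0, with a median of -0.13.

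The lysine methyltransferase Kmt2a (MLL1), which methylates histone H3 at active promoters, had signals of 263.7, 190.7 and 283.7 on the sham arrays and of 367.7, 344.9 and 313.3 on the light arrays. The groups did not overlap, and sham 3 was the nearest to the light arrays. The log2 difference was 0.49 (SE 0.34, 95% interval -0.25 to 1.23, 1.41-fold, limma adjusted p = 0.960). At its other probe set, which was not kept, signals ran from 3.7 to 197.2 on the sham arrays and from 22.7 to 97.7 on the light arrays. Kmt2e (MLL5), a relative with little or no methyltransferase activity, read 2404.6, 2865.3 and 1753.3 on the sham arrays and 1890.7, 2312.8 and 3382.0 on the light arrays. Its log2 difference was 0.10 (SE 0.29), and at its other kept probe set 0.79 (SE 0.59). Over the 8 kept probe sets, which also read Kmt2c and the H4 lysine methyltransferases Kmt5a, Kmt5b and Kmt5c, 6 differences were above 0 and the median was 0.14.

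The lysine acetyltransferases overlapped between groups at all 6 kept probe sets, and 3 of the 6 intervals lay within 2-fold. Kat2b (PCAF) had signals of 689.1, 813.5 and 879.4 on the sham arrays and of 852.7, 640.2 and 832.9 on the light arrays, a log2 difference of -0.04 (SE 0.28, 95% interval -0.65 to 0.57). Its paralog Kat2a (GCN5) differed by 0.03 (SE 0.37) and by 0.17 (SE 0.48) at its kept probe sets. Kat6a (MOZ) had 874.5, 443.4 and 812.3 on the sham arrays and 677.9, 962.9 and 534.3 on the light arrays, a difference of 0.05 (SE 0.35). Kat6b (MORF), of the same subfamily, had 207.7, 420.9 and 227.6 on the sham arrays and 149.9, 193.4 and 237.5 on the light arrays. Sham 2 stood above the other 5 arrays, and the log2 difference was -0.51 (SE 0.42, limma adjusted p = 0.960), or -0.19 without sham 2. The median of the 6 kept probe sets was 0.04.

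The nuclear receptor coactivators join receptors to acetyltransferases. Ncoa1 (SRC-1) had signals of 1958.4, 2422.5 and 1859.4 on the sham arrays and of 2010.6, 1697.2 and 2062.6 on the light arrays, a log2 difference of -0.11 (SE 0.25, 95% interval -0.65 to 0.43). This was the smallest SE of the kept member probe sets. The other kept Ncoa1 probe set differed by 0.08 (SE 0.39). Ncoa4, which also carries ferritin to the lysosome, had 566.9, 478.5 and 693.1 on the sham arrays and 779.5, 366.0 and 597.4 on the light arrays. Its difference was -0.05 (SE 0.34), and at its other kept probe set -0.80 (SE 0.87), the lowest of the kept members. Ncoa6 had 386.1, 874.6 and 460.0 on the sham arrays and 352.9, 276.3 and 625.7 on the light arrays, with sham 2 the highest and a difference of -0.45 (SE 0.40, limma adjusted p = 0.960), or -0.10 without sham 2. Ncoa2 (TIF2), a coactivator that binds clock proteins, was not kept, with signals of 3.1 to 25.7 on the sham arrays and 13.2 to 86.9 on the light arrays. Of the 6 kept probe sets 2 were above 0, and the median was -0.08.

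The histone deacetylases of class I are the nuclear enzymes of the large corepressor complexes. Hdac1 had signals of 1529.8, 727.1 and 947.9 on the sham arrays and of 1081.1, 995.0 and 865.5 on the light arrays, a log2 difference of -0.06 (SE 0.32), which was 0.23 without sham 1 and -0.30 without sham 2. Hdac3, the enzyme of the NCoR complex, had 415.1, 344.0 and 426.0 on the sham arrays and 356.7, 369.9 and 283.4 on the light arrays. Light 3 was the lowest and the groups overlapped, with a difference of -0.23 (SE 0.32, 95% interval -0.91 to 0.45). Hdac2 differed by 0.42 (SE 0.48). Sin3a, the scaffold that holds HDAC1 and HDAC2, had 239.7, 86.5 and 82.2 on the sham arrays and 267.8, 155.0 and 260.2 on the light arrays. Sham 1 lay among the light arrays. The log2 difference was 0.89 (SE 0.54, 95% interval -0.27 to 2.04, limma adjusted p = 0.960), running from 0.62 without sham 3 to 1.39 without sham 1. The other pair of Sin3a probe sets was not kept.

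In classes II and IV, Hdac5, which shuttles out of the nucleus when neurons are active, had the widest difference of all kept members. Its signals were 226.8, 6.3 and 137.7 on the sham arrays and 159.6, 243.8 and 189.4 on the light arrays. The signal of sham 2 was far below the other 5 arrays, among which the groups overlapped. The log2 difference was 1.74 (SE 1.07, 95% interval -0.56 to 4.05, limma adjusted p = 0.960), but 0.14 without sham 2 and 0.78 with an offset of 50 added to every signal. Hdac6, a deacetylase of tubulin in the cytoplasm, had 386.4, 153.6 and 621.2 on the sham arrays and 376.6, 554.7 and 169.8 on the light arrays, a difference of -0.02 (SE 0.52). Hdac11, the class IV enzyme, had 3053.1, 1332.1 and 3610.9 on the sham arrays and 2925.6, 4397.8 and 1836.9 on the light arrays, a difference of 0.23 (SE 0.39), or -0.21 without sham 2. The other kept Hdac11 probe set differed by -0.002 (SE 0.30). Sham 2 gave the lowest signal for all of these genes.

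The sirtuins remove acetyl groups with NAD as cofactor. Sirt1, the nuclear form tied to the clock, had signals of 495.0, 890.0 and 573.4 on the sham arrays and of 671.1, 218.8 and 1063.0 on the light arrays. The light group alone spanned the whole range of the sham group, and the log2 difference was -0.23 (SE 0.48, 95% interval -1.27 to 0.81). It turned to 0.42 without light 2 and was -0.72 without light 3. Sirt3, the main mitochondrial deacetylase, had 2085.0, 1261.6 and 2003.5 on the sham arrays and 2217.9, 2386.8 and 1477.3 on the light arrays, a difference of 0.19 (SE 0.30), or -0.04 without sham 2. Sirt2 differed by 0.13 (SE 0.48) and Sirt7 by 0.69 (SE 0.50).

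The CHD remodelers are ATPases with chromodomains. Chd6 had signals of 3366.2, 3417.7 and 2480.2 on the sham arrays and of 4474.3, 3223.2 and 2877.0 on the light arrays, a log2 difference of 0.18 (SE 0.26, 95% interval -0.38 to 0.74). Chd8 had 1317.6, 1014.5 and 1404.2 on the sham arrays and 1578.3, 1306.5 and 1121.1 on the light arrays, a difference of 0.10 (SE 0.28). Both intervals lay within 2-fold. Chd4, the ATPase of NuRD, and Chd1 also lay above 0, at 0.08 (SE 0.64) and 0.75 (SE 1.17), and their spread was among the widest of the members.

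Several genes were read by more than 1 probe set, which gives a measure of how far a single probe set can be taken for its gene. Of the 58 genes 29 had at least 2 probe sets, and 19 had both a kept and a not kept one. In 13 genes 2 probe sets were kept: the log2 differences had the same sign in 7 of them and opposite signs in 6 (Dnmt3a, Hdac11, Kmt5b, Ncoa1, Smarca5 and Smarcb1). Smarcd2 was the one of these genes in which both kept probe sets separated the groups. Probe sets of a gene share the RNA of the same arrays and are not replicates of the condition.

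The members varied by array as well as by group. The lowest of the 6 signals fell on sham 2 in 20 of the 58 kept probe sets (34.5%), against 21.6% of all kept probe sets, and on each of the other arrays in 4 to 10. Their median deviation from the probe set's own mean on sham 2 was -0.22 on the log2 scale, against 0.00 over all kept probe sets. Hdac5, Chd1 and the second Smarcd2 probe set deviated most there, at -4.08, -2.34 and -2.05. The highest signal fell on light 1 in 15 of the 58 (25.9%, against 15.0% of all). The scaled arrays had like overall levels, with trimmed mean signals of 492.3 to 495.6, and log2 signals over all kept probe sets correlated at 0.893 to 0.935 within groups and 0.886 to 0.934 between groups. Oligodendrocyte markers summed to their lowest on sham 2 as well. That sum was carried by Mbp, at 21739.4 on sham 2. Mbp, Mobp and Mog had their lowest signal on sham 2, but Mag on light 3 (5.6) and Cldn11 on light 2 (195.5). The part of these markers was not tested.

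**Figure D4:**
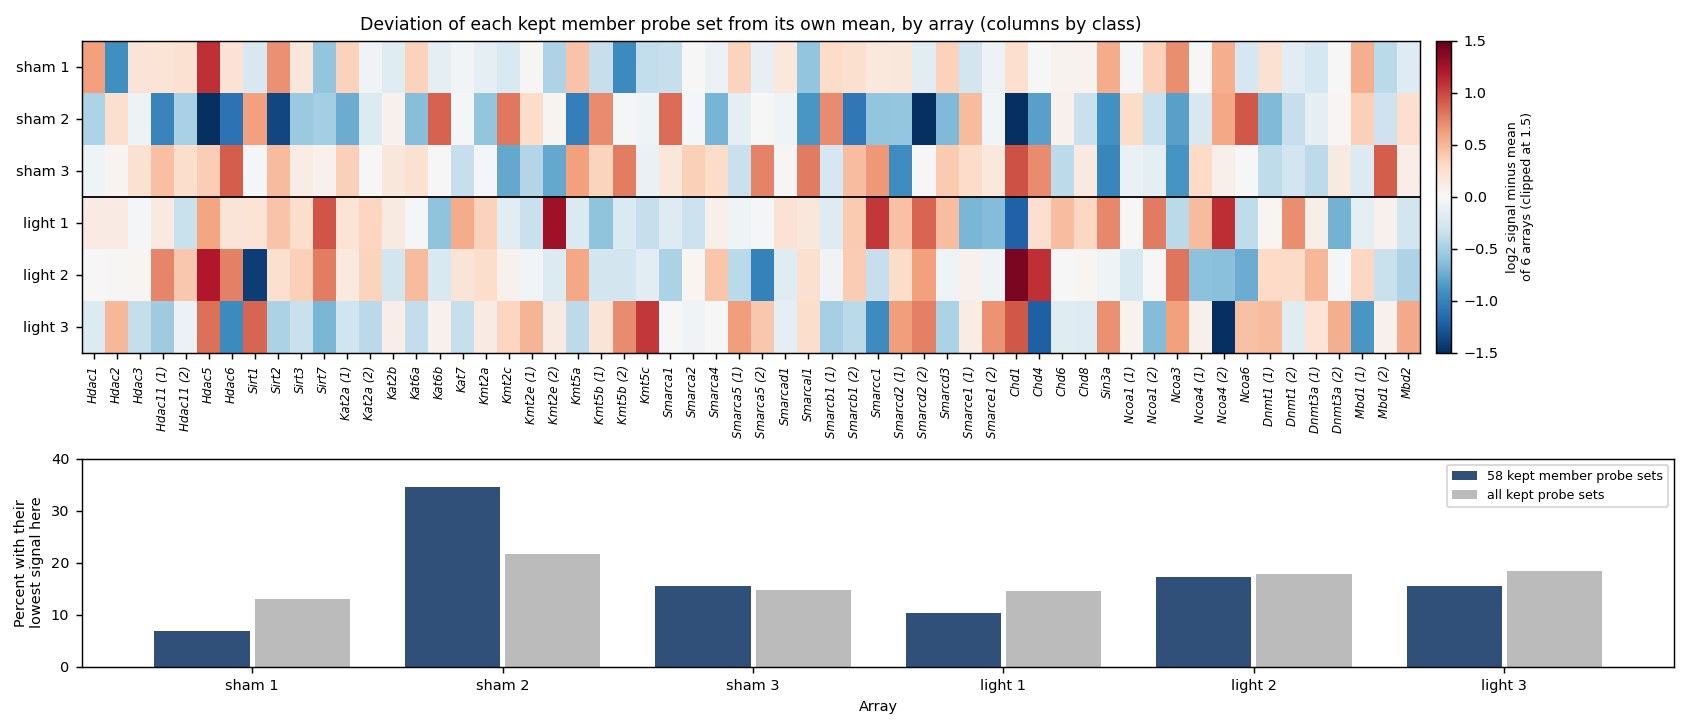
Top, deviation of each kept member probe set from its own mean over 6 arrays (log2, colour clipped at 1.5), arrays in rows and probe sets by class in columns; bottom, percent of the 58 kept member probe sets and of all kept probe sets with their lowest signal on each array. Sham 2 holds the lowest signal of 34.5% of the member probe sets and of 21.6% of all.

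The partners of these proteins were read through lists of 108 further genes: subunits of the BAF, NuRD, Sin3, NCoR, CoREST and Polycomb complexes, histone demethylases, heterochromatin genes, readers and erasers of DNA methylation, and other coactivators. Of these 87 were measured, with 87 kept probe sets of 58 genes. Limma called 0 of the 87 (0.0677% of all kept probe sets), and 6 had an unadjusted p under 0.05 (6.9%, against 4.31% of all kept probe sets). Of these, 3 had higher light signals and 3 lower ones, and the 3 lower ones were all probe sets of Ppargc1a. The Bayesian test called 0 and had 8 at that level (9.2%, against 4.31% of all in that test too). The median log2 difference was 0.02 and 44 of 87 were above 0. All 3 light signals lay above all sham signals in 7 (8.05%, against 5.62% of all kept probe sets) and below them in 4 (4.6%, against 4.46%).

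The genes behind those 6, chosen for mention after their values were seen, were Kdm5b, Kdm2b, Cbx1 and Ppargc1a. Kdm5b, a demethylase of histone H3 at promoters, read 250.9, 186.2 and 221.7 on the sham arrays and 461.8, 613.4 and 253.1 on the light arrays, a log2 difference of 0.93 (SE 0.39, limma adjusted p = 0.960). Light 3 lay just above the highest sham array. Its other kept probe set, 1427142_s_at, read 218.7, 81.9 and 215.2 on the sham arrays and 306.6, 366.0 and 259.0 on the light arrays, with no overlap and a difference of 0.97 (SE 0.46). Ppargc1a (PGC-1-alpha), a coactivator of nuclear receptors in energy metabolism, had 5 kept probe sets, all with a log2 difference below 0. At 1434100_x_at it read 477.0, 777.0 and 467.6 on the sham arrays and 271.7, 255.0 and 287.8 on the light arrays, with no overlap and a log2 difference of -1.04 (SE 0.33, limma adjusted p = 0.960). At 1434099_at, where the groups did not overlap either, the difference was -0.86 (SE 0.31). At the remaining 3 probe sets the groups overlapped, with differences of -0.82 (SE 0.36), -0.42 (SE 0.46) and -1.07 (SE 0.78). Cbx1, a heterochromatin protein, had 4 kept probe sets. They differed by 1.04 (SE 0.42) and 0.76 (SE 0.51), without overlap of the groups, and by 0.10 (SE 0.42) and -0.18 (SE 0.34), with overlap. Kdm2b differed by 0.77 (SE 0.35) at its one kept probe set.

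By list, the median log2 difference was 0.44 for the 9 kept probe sets of histone demethylases, 0.10 for the 18 of NuRD and Sin3 subunits, 0.05 for the 13 of BAF subunits outside the SMARC genes, 0.02 for the 17 of Polycomb subunits, -0.04 for the 10 of heterochromatin genes, -0.12 for the 8 of NCoR and CoREST subunits and -0.24 for the 12 of other coactivators. The probe sets of other coactivators include all the kept ones of Ppargc1a given above, each with a lower light level. The 3 measured readers and erasers of DNA methylation had no kept probe set. The genes that follow are each given at the probe set with the highest mean log2 signal. Rbbp4 and Rbbp7 each had another kept probe set, which is not given. Among the histone chaperones of NuRD, Rbbp4 had signals of 14970.1 to 19492.1 on the sham arrays and 19669.6 to 30158.5 on the light arrays, a log2 difference of 0.43 (SE 0.20, limma adjusted p = 0.960), and Rbbp7 overlapped at 0.26 (SE 0.21). Of the BAF subunits, Arid2 differed by 0.27 (SE 0.32) and Ss18 by -0.57 (SE 0.31). The NCoR subunit Tbl1x differed by -0.35 (SE 0.30). Crebbp, the CREB-binding acetyltransferase gene, mentioned for its role in the response to light and after its values were seen, differed by -0.17 (SE 0.35).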

How the data were processed

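RNA of laser-captured SCN pools was hybridized to Affymetrix Mouse 430A 2.0 arrays, with 3 pools in each group. The values are the signal intensity per probe set that the authors deposited, on a linear scale: MAS5, for which the submitters' processing notes give no version, with a scale factor for each array. Present calls were not used here. Gene symbols came from the platform annotation: of 22626 probe sets 20380 had 1 symbol, 691 several and 1555 none, and those with 1 were named. All 101 member probe sets matched a current gene table by Entrez ID.

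Probe sets were ranked by the third highest of their 6 signals and the top 10340 kept, as many as in the study's filter. Log2 signals with no offset were compared in R 4.3.3 with limma 3.58.1 (a linear model and eBayes with its trend option, two-sided tests, p-values adjusted after Benjamini-Hochberg over all kept probe sets, threshold 0.05). A fold is a ratio of geometric means. A probe set left out by the filter was given by its signals. Cyber-T, the study's test, was written anew with a window of 101 and a prior weight of 10. The rewritten test, on probe sets chosen by another filter, did not match the study's counts. Both tests were tested on simulated data. No other covariate entered the fit.

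The members follow from a rule on gene symbols that used no signal. That rule, the lists and the classes were set with earlier results of these data known. Member genes were named for the highest mean signal in a class (2 each), the 5 smallest p-values in each direction, or known binding to clock proteins. Other members of a class are given to complete it. Partners were named for the highest mean signal in the lists of NuRD and Sin3, BAF, and NCoR and CoREST subunits. From the other partner lists only genes chosen after their values were seen are named. Alternatives were another filter, scaling, offset, test, choice of probe sets, the replicate number as a block, and leaving out each array. The number of arrays limits the precision.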

Additional observations from a re-analysis of the deposited data

How the results depend on the processing

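In every alternative run, 0 member probe sets were called at an adjusted p under 0.05, and the adjusted p of the named genes did not go under 0.889. Same-numbered sham and light arrays correlated in their deviations from the group means at 0.096, -0.192 and -0.129. The other pairs of a sham and a light array ran from -0.111 to 0.203. Deviations within a group balance out, so these values cannot decide whether the replicate numbers pair the arrays. With the replicate number as a block, 0 members were called and 1 had an unadjusted p under 0.05, and over all kept probe sets 6 were called in place of 7. Cyber-T called 5 of all kept probe sets and dropping the intensity trend left 4.

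Member probe sets higher on every light array numbered 4, and 2 with the stricter filter, 6 with no filter, 5 to 9 with an array left out. Those lower on every light array numbered 0, and 1 with a common 75th percentile, 1 with no filter, 1 to 4 with an array left out. Groups separate more easily with fewer arrays. The share of all kept probe sets higher on every light array also rose without sham 1 or light 3, as given above. The counts with no filter join the probe sets kept and left out, whose shares are given separately above. The stricter filter left fewer member probe sets to count. No share of all probe sets is given for that filter or for the common 75th percentile. None is given for higher signals without sham 2, sham 3, light 1 or light 2, or for lower signals with an array left out. The counts with no such share therefore cannot be set against the array as a whole. With an array left out, the median log2 difference ran from -0.058 to 0.18 over all members, from -0.30 to 0.07 for class I histone deacetylases, from -0.11 to 0.22 for lysine acetyltransferases, from -0.03 to 0.34 for lysine methyltransferases, from -0.32 to -0.003 for methyl-CpG-binding domain proteins, from -0.29 to 0.043 for nuclear receptor coactivators, from -0.23 to 0.50 for class II and IV histone deacetylases, from -0.14 to 0.40 for CHD remodelers, from -0.013 to 0.41 for sirtuins, from -0.14 to 0.043 for SMARC remodelers, from 0.42 to 0.56 for DNA methyltransferases and from 0.62 to 1.39 for Sin3a. Without probe sets ending in _s_at or _x_at the class I median was 0.18, where Hdac3 drops out by construction.

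Leaving out 1 array turned the direction of 13 named genes, all of them far from the threshold. Their log2 differences ran from -0.005 to 0.31 for Chd6, from -0.041 to 0.22 for Chd8, from -0.30 to 0.23 for Hdac1, from -0.21 to 0.55 for Hdac11, from -0.58 to 0.46 for Hdac6, from -0.14 to 0.093 for Kat2b, from -0.26 to 0.25 for Kat6a, from -0.13 to 0.29 for Kmt2e, from -0.42 to 0.10 for Mbd2, from -0.19 to 0.006 for Ncoa1, from -0.29 to 0.25 for Ncoa4, from -0.72 to 0.42 for Sirt1 and from -0.042 to 0.40 for Sirt3. Of the alternatives that keep all arrays, quantile normalization turned Kat2b, to 0.003. The cause was not tested. The direction of Smarcd2, Dnmt1, Dnmt3a, Kmt2a, Sin3a, Hdac5, Hdac3, Kat6b, Mbd1, Ncoa6, Smarca1 and Smarcb1 held in every alternative that kept the probe set. It was read at the probe set given first for each gene. Some of these were dropped by the stricter filter or for ending in _s_at or _x_at, and were not tested there. The other kept probe sets of Dnmt3a and Smarcb1 went the opposite way. With 3 arrays per group and signals near the filter's limit in many member probe sets, differences under 2-fold were mostly not detectable. Larger ones could be missed as well. Hdac5, at an estimate of 3.35-fold, and the second kept Smarcd2 probe set, at 2.8-fold, both had a limma adjusted p of 0.960.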
